A study of Homo sapiens with 4 samples.

Results

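The IFIT, OAS and MX gene clusters are antiviral genes that type I interferon switches on, and their chromatin was described here from 1 deposited list of ATAC-seq peaks. ATAC-seq uses the Tn5 transposase to cut and tag open DNA. The cells were T47D-MTVL, a line derived from the T47D breast cancer line that carries 1 stably integrated luciferase reporter under the MMTV promoter in both groups. They expressed an shRNA against multiple H1 variants (multiH1sh, 2 samples) or a random shRNA (RDsh, 2 samples). H1 is the linker histone, which sits where DNA enters and leaves the nucleosome, and the series addressed DNA accessibility after loss of several H1 variants. No sample has values of its own in the list. Its track line gives an shRNA name that the labels do not use beside RDsh, so taking the list as that of the knock-down is an assumption. The track line also calls the list differential to RDsh, and whether the control entered the peak calling or samples were pooled could not be settled. A summit can thus mean open DNA in the samples used or a site that differs from the control. Knock-down and control can therefore not be compared at these genes, and no spread between replicates can be given.

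Members were the lines of the list whose summit, the point of highest signal, fell in 1 of 3 windows of hg19. The IFIT window is chromosome 10 from 91050000 to 91190000 and was set to hold IFIT2, IFIT3, IFIT1 and IFIT5. The OAS window is chromosome 12 from 113330000 to 113460000, for OAS1, OAS3 and OAS2. The MX window is chromosome 21 from 42720000 to 42840000, for MX2 and MX1. In all, 61 of 371521 summits were members, in 49 of 197823 regions, a region being a distinct start and end. The IFIT window held 3, the OAS window 23 and the MX window 35. No annotation of hg19 was used, so a summit is placed by its position in a window and not in a promoter, exon or intron. The cell type was not checked against marker genes for the same reason.

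Interferon binds its receptor and activates transcription factors that bind a DNA motif called the interferon-stimulated response element (ISRE) in the promoters of its target genes. The IFIT proteins bind viral RNA and hinder its translation. The OAS enzymes sense double-stranded RNA and make short oligoadenylates that activate RNase L, which degrades RNA, and the MX proteins are dynamin-like GTPases that block incoming viruses. Loss of several H1 variants is known, from work on T47D cells, to raise the expression of interferon-stimulated genes, but no expression was measured in this series.

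The RefSeq promoter table, of build GRCh38.p14 and so of another build than the list, gave sequences for 6 of the 9 genes: IFIT3, IFIT1, IFIT5, OAS1, OAS3 and MX1. IFIT2, OAS2 and MX2 were not matched. Each promoter runs from 250 bases before a gene's start to 50 after it. The ISRE core was searched on both strands as GAAA, any 2 bases and GAAA again, which reads TTTC, any 2 bases and TTTC on the other strand. Its longer form ends in CT after the second GAAA and so contains the core. The core was found in 5 of the 6 genes (IFIT3, IFIT1, IFIT5, OAS3 and MX1), against 4.38% of all 27305 genes of the table. The longer form was found in 4 of the 6, against 0.322% of all genes. Before the start alone it was found in 3, against 0.271%, since the longer form of MX1 lies after a start. OAS1 held neither within these bases. The core was thus found in at least 1 gene of each cluster, though only in OAS3 for OAS and only in MX1 for MX. For genes with a match before the start, 1 match per gene start is printed with 20 bases on each side. The letters run 5′ to 3′ on the plus strand of GRCh38.p14. The capitals mark the core.
IFIT3, first start (chr10:89327855-89327904): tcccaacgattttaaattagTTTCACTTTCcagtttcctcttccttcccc
IFIT3, second start (chr10:89332458-89332507): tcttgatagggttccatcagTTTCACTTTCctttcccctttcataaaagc
IFIT1 (chr10:89392487-89392536): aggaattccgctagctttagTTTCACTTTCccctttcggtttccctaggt
IFIT5 (chr10:89414503-89414552): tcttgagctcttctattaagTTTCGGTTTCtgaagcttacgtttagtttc
OAS3 (chr12:112938311-112938360): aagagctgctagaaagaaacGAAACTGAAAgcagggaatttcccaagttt
MX1 (chr21:41431834-41431883): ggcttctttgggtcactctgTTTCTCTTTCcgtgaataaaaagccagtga

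Where a start had several matches the one printed was chosen after they were seen. TTTCACTTTC was among the matches at IFIT1 and at both starts of IFIT3. IFIT3 held 4 matches, 2 at each start, and its others read TTTCATTTTC and TTTCAGTTTC, while the other of IFIT1 read TTTCGGTTTC. IFIT5 held 3 matches, of which the first 2 begin 45 and 19 bases before the start. IFIT1 held 2, beginning 116 and 103 bases before it, and OAS3 held 2, beginning 143 and 12 bases before it. The MX1 match printed is the core without the longer form and begins 196 bases before 1 of the 3 starts listed for that gene. Among other interferon-stimulated genes 14 of the 24 matched held the core, such as ISG15, RSAD2 and IFI44L, and 10 did not, such as IRF1 and XAF1. Among housekeeping genes 1 of 11 did, B2M, which encodes the light chain of class I antigen-presenting molecules. A match describes the reference letters only, and whether a listed region lies on any of these promoters was not analysed here.

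Each summit carries a fold, the authors' enrichment of reads over background. The −log10 q values are also the authors'. The folds of the list are whole read pileups over 1 background of 2.01 reads, taking the fold as (pileup + 1) / (background + 1), so each fold below is also given as the reads at the summit. That 1 background served all summits, so a fold is not measured against the control's level at that site. The lowest pileup in the list was 10 reads, and weaker sites are not in it. The whole list had a median fold of 5.32 (15 reads). Summits in a window are not independent of each other, so the intervals below, at 95%, cover counting error only.

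The IFIT window had the fewest listed summits, 3 in 140 kb. The gene order in it is IFIT2, IFIT3, IFIT1B, IFIT1 and IFIT5, with LIPA before and SLC16A12 after, per RefSeq. A first summit at position 91082453, 23.2% of the way along the window, had the lowest listed pileup, 10 reads, with a fold of 3.66 and a −log10 q of 3.29. The other 2 lay in 1 region of 536 bp from 91174454 to 91174989, near 89% of the way along, on the side where IFIT5 is the last gene. The summit at 91174532 had 29 reads, a fold of 9.97 and a −log10 q of 21.2, the highest fold of all 61 members. Its neighbour at 91174859 had 25 reads and a fold of 8.64. The window thus held 1 strong region and 1 at the limit of the list, with 92.1 kb between them and no summit in that stretch.

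For 4 IFIT genes the list thus had 2 regions. No summit followed the strong region for 116514 bp, the stretch that crosses the window's right border and ends at 91291373. The density was 21.4 summits per Mb (95% exact Poisson interval 4.42 to 62.6), against 126 per Mb on chromosome 10. The whole list had 124 per Mb. Windows of the same length over chromosomes 1 to 22 and X had a median of 2 summits, and 45.4% of 21051 such windows had at least as many as the IFIT window. So its low count was near the middle of the genome's windows, of which 35.6% had no summit.

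The OAS window held 23 summits in 19 regions over 130 kb. The genes in order are OAS1, OAS3 and OAS2, the first making the smallest of the oligoadenylate synthetases, with RPH3A before and DTX1 after, per RefSeq. The highest summit, at 113409695 in a region from 113409554 to 113409976, had 28 reads, a fold of 9.64 and a −log10 q of 20.1. The next, at 113403650, had 20 reads and a fold of 6.98. It shared a region of 541 bp, the widest of this window, with a summit at 113403978 of 17 reads. The summit at 113376190, 35.5% of the way along, had 18 reads and a fold of 6.32. Summits at 113386766 and 113400739 had 17 reads each (fold 5.98). Only the first 2 of these reached 20 reads, and the other 21 summits of the window ran from 10 to 18.

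The middle of the OAS window held most of its summits. When the summits were grouped wherever less than 10 kb separated neighbours, 11 formed a group from 113400739 to 113416570 and 7 a group from 113376190 to 113386766. Together these lie between 35.5% and 66.6% of the way along. Before them the window had 3 summits: 1 at 113330042, only 41 bp inside the border, with 12 reads (the nearest outside lay 409 bp beyond it, with 11 reads), 1 at 113335526 with 11 reads, and 1 at 113357046 with 15 reads. After them it had 2, at 113440475 with 10 reads and at 113447320 with 16 reads. The stretch between the second group and the last pair, 23.9 kb, was the longest in the window without a summit. The stretches before and after the summit at 113357046 were 21.5 and 19.1 kb.

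The density of the OAS window was 177 summits per Mb (112 to 265), against 172 on chromosome 12. Of 22671 windows of 130 kb, 14.7% had at least 23 summits. The median fold was 4.99 (binomial interval of the median 4.32 to 5.65), and the interval includes the list's median of 5.32.

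The MX window held 35 summits in 28 regions over 120 kb, the most of the 3. Its genes in order are MX2, whose product sits at the nuclear envelope, and MX1, which encodes the cytoplasmic MxA, with FAM3B before and TMPRSS2 after, per RefSeq. The highest summit, at 42751598 in a region from 42751451 to 42751784, had 23 reads, a fold of 7.98 and a −log10 q of 14.6. The next, at 42795805, had 20 reads (fold 6.98). Summits at 42749796 and 42798044 had 19 reads each (fold 6.65) and 1 at 42745187 had 18 (fold 6.32). As in the OAS window only 2 summits reached 20 reads, and none of the 35 was as high as the strong region of the IFIT window.

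The MX summits fell into 3 groups. The first, on the side where MX2 is the first gene, had 27 summits in 20 regions from 42732331 to 42776046, or 77.1% of the window's total. Within it 18 summits lay in 9 kb, between 42743789 and 42752757. Of 24560 windows of 120 kb, 7.69% held a 10 kb stretch with at least 18 summits. This stretch included the only member region of 1 kb or more, from 42743738 to 42745363 (1626 bp, with summits of 15 and 18 reads). It also included the only one with 3 summits, from 42750931 to 42751329 (16, 16 and 13 reads).

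**Figure D1:**
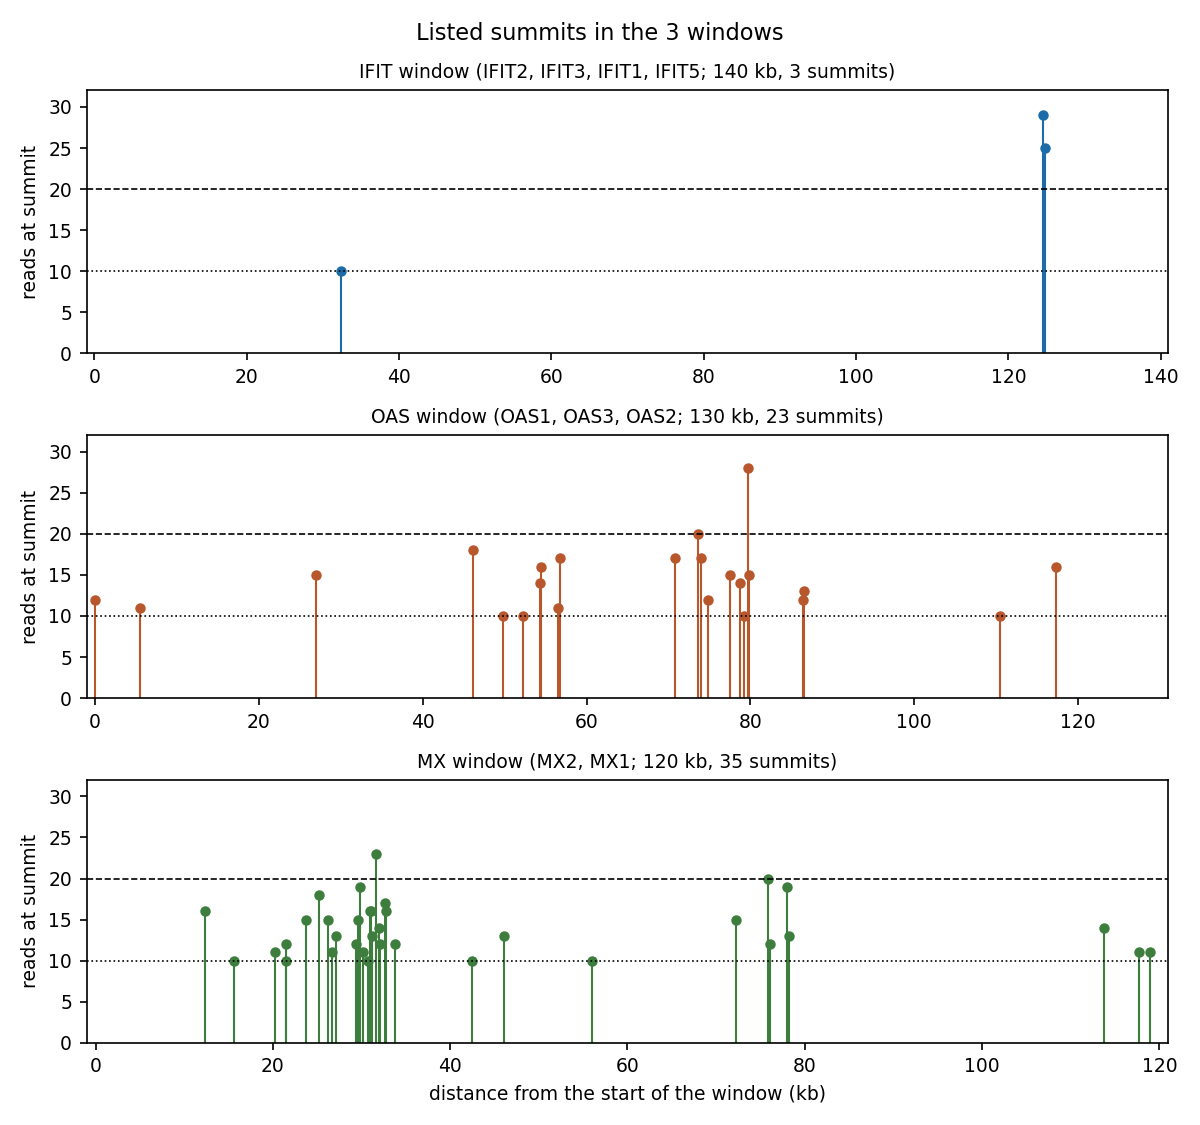
Reads at each listed summit (vertical axis) by distance from the start of the window in kb, for the IFIT, OAS and MX windows; each stem is 1 summit, the dotted line is the lowest listed pileup of 10 reads and the dashed line is 20 reads. The IFIT window has 3 summits, 2 of them above 20 reads, whereas the OAS and MX windows have 23 and 35 summits that lie mostly under 20 reads.

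The second MX group had 5 summits from 42792260 to 42798271, between 60.2% and 65.2% of the way along, with folds from 4.32 to 6.98 and a median of 5.32. It contains 2 of the 5 highest summits of the window. A stretch of 35.5 kb without a summit followed, the longest in the window. The third group had 3 summits of 11 to 14 reads from 42833738 to 42838914, near the right border and toward TMPRSS2. The last of them lay 1087 bp inside the border with 11 reads, and the next summit outside lay 538 bp beyond it, also with 11 reads.

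The MX window had 292 summits per Mb (203 to 406), against 164 on chromosome 21. Of 24560 windows of the same length 10.5% had at least 35 summits. The median fold was 4.65 (4.32 to 5.32), or 13 reads. The intervals of the OAS and MX medians overlap, and the 3 IFIT summits are too few for one. The window with the fewest summits held the highest single fold.

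Across the 3 windows the MX density was 13.6 times that of the IFIT window (exact interval 4.29 to 69.2), and the OAS density was 8.26 times (2.49 to 43.0). Both intervals lie above 1. The MX density was 1.65 times that of the OAS window, with an interval of 0.947 to 2.92 that includes 1. At 20 reads or more each window had 2 summits. The ratios to the IFIT window were then 1.17 for MX (0.0846 to 16.1) and 1.08 for OAS (0.0781 to 14.9), intervals that hold both 1 and the ratios over all summits, so these counts are too small to show whether the windows differ in high summits. Of the OAS summits 21 of 23 had under 20 reads, and of the MX summits all but 2 did.

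High summits were few among the members. Of the 61 summits 6 had 20 reads or more, 9.84% (95% Wilson interval 4.59 to 19.8%), against 26.5% of all listed summits. In the IFIT window 2 of 3 did (66.7%, interval 20.8 to 93.9%), both in 1 region. In the OAS window 2 of 23 did (8.70%, 2.42 to 26.8%) and in the MX window 2 of 35 (5.71%, 1.58 to 18.6%). The IFIT and OAS intervals include the list's 26.5%, and the MX interval lies below it. Without the MX window the share was 15.4% with an interval of 6.15 to 33.5%, which includes the list's 26.5%. The difference thus exceeded counting error only with the MX window included. Leaving it out takes away 35 of the 61 summits, and the OAS share was low as well, so the difference is not shown to be particular to MX. Some of the neighbouring 200 kb stretches also had lower shares than the list. These were 15.8% to the right of the MX window (7.44 to 30.4%) and 23.3% to its left (11.8 to 40.9%). To the left of the OAS window the share was 18.75% (8.89 to 35.3%). Each of these intervals includes the list's 26.5%. The other stretches had higher shares, 33.3% and 40% beside the IFIT window and 30.1% to the right of the OAS window. No member had 30 reads or more, against 6.22% of the list. At the lowest pileup of 10 reads were 10 members, or 16.4%, against 8.36% of the list. Regions with more than 1 summit made up 11 of the 49 (22.4%), against 28.2% of all regions, and 4 of the 49 were 500 bp or wider, against 17.5%. No interval was computed for these shares of regions, so neither is shown to differ from the list. When only the highest summit of each region was kept, the share at 20 reads or more was 10.2%, with an interval of 4.44 to 21.8% and 21.9% of the list's regions beside it. Thus the difference from the list then only just exceeded counting error.

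**Figure D2:**
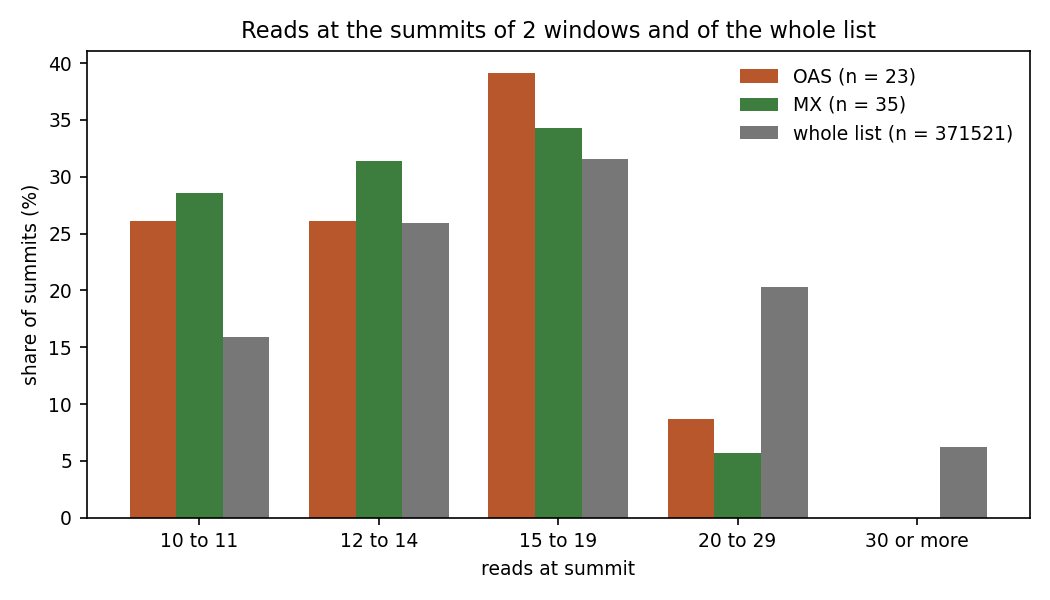
Share of summits in percent (vertical axis) by the reads at the summit (horizontal axis), for the OAS window, the MX window and the whole list. In the OAS and MX windows 8.70% and 5.71% of summits have 20 to 29 reads, against 20.3% of the list, and neither has a summit of 30 or more; the IFIT window, with 3 summits, is not drawn.

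The 3 windows were then set beside the 200 kb on either side. The IFIT window lay in sparse surroundings. Its left 200 kb had 9 summits and its right 200 kb had 5, all 5 of them between 100 and 150 kb from the border. The window's density was 0.612 times that of both sides, with an interval of 0.113 to 2.19 that includes 1, and 1.14 times (0.109 to 6.98) when only summits of 20 reads or more were counted. The highest summit to the left, at 91011798 in a region from 91011155 to 91011885, had 47 reads and a fold of 16.0 (15.96), 38.2 kb from the border on the side of LIPA, the lysosomal acid lipase gene. To the right the highest, at 91295481, had 23 reads and a fold of 7.98. The strong region of the window therefore stood between these, at 29 reads.

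The OAS window lay beside a much denser stretch. Its left 200 kb had 32 summits, or 160.0 per Mb, and its right 200 kb had 276, or 1380.0 per Mb. The window's density was 1.11 times that of the left side (0.618 to 1.95) and 0.128 times that of the right side (0.0799 to 0.196). It thus resembled its left side within counting error and was well below its right side, and the ratio to both sides together, 0.230 (0.143 to 0.351), rests on the right. The rise was not at the border. With a limit chosen after the 10 kb bins were seen, the first 30 kb to the right had 5 summits and the remaining stretch to 200 kb had 271. The highest summit on the right, at 113659082 in a region from 113658602 to 113659979, had 50 reads and a fold of 17.0 (16.96), and that on the left, at 113229378, had 25 reads. Summits of 20 reads or more made up 30.1% on the right (24.97 to 35.7%), against 8.70% in the window (2.42 to 26.8%).

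**Figure D3:**
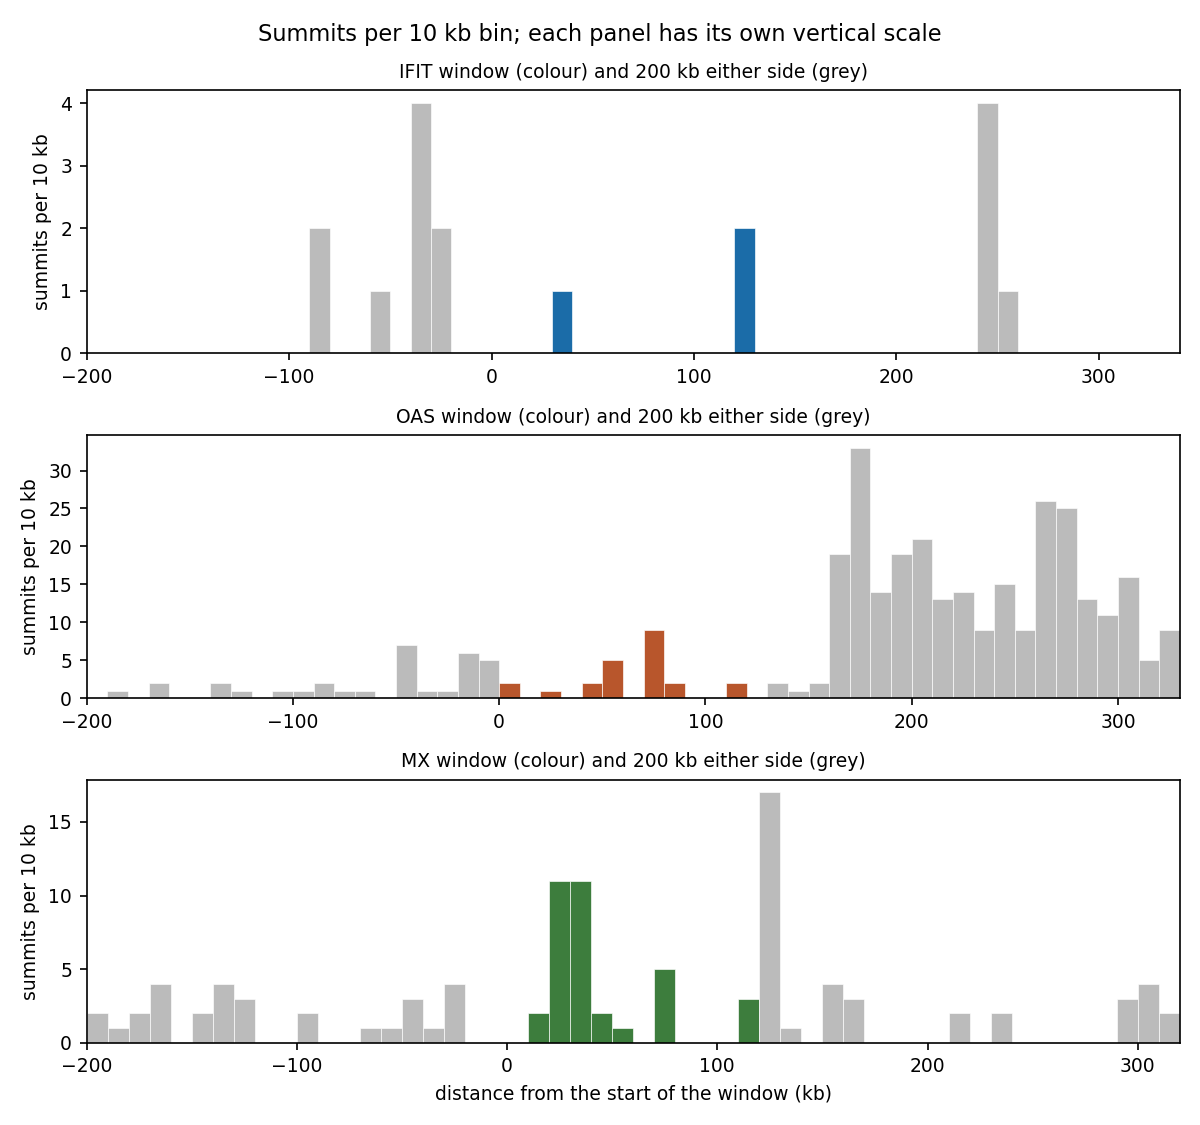
Summits per 10 kb bin (vertical axis, with its own scale in each panel) by distance from the start of the window in kb, for each window in colour and the 200 kb on either side in grey. The OAS panel rises to the right from 30 kb beyond the window, and the MX panel has 2 neighbouring bins of 11 summits inside the window and 17 summits in the first 10 kb to its right.

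The MX window was the only one of the 3 with more summits per length than both sides. Its left 200 kb had 30 summits and its right 200 kb had 38. The window's density was 1.72 times that of both sides (1.11 to 2.62), 1.94 times that of the left (1.16 to 3.28) and 1.54 times that of the right (0.942 to 2.50), the last interval including 1. Counted at 20 reads or more, with 2 summits in the window and 13 on the sides, the ratio was 0.513, but its interval of 0.0562 to 2.27 includes 1 and the ratio over all summits. With sides of 500 kb the ratio was 1.29 with an interval of 0.877 to 1.85, and with sides of 100 kb 1.496 (0.920 to 2.42), and both include 1.

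Next to the MX window the right side opened with 17 summits in its first 10 kb, on the side of TMPRSS2, an androgen-regulated serine protease gene. They included the highest summit of both sides, at 42846601 in a region from 42845502 to 42847614, with 53 reads and a fold of 18.0 (17.95). On the left the highest, at 42580499, had 31 reads and a fold of 10.6. Both exceeded the 23 reads of the highest MX summit. The highest summits beside the windows thus had 47 reads at IFIT, 50 at OAS and 53 at MX, but the sides are longer than the windows and hold more summits (14 against 3, 308 against 23 and 68 against 35), so a higher maximum there is no finding about the windows.

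**Figure D4:**
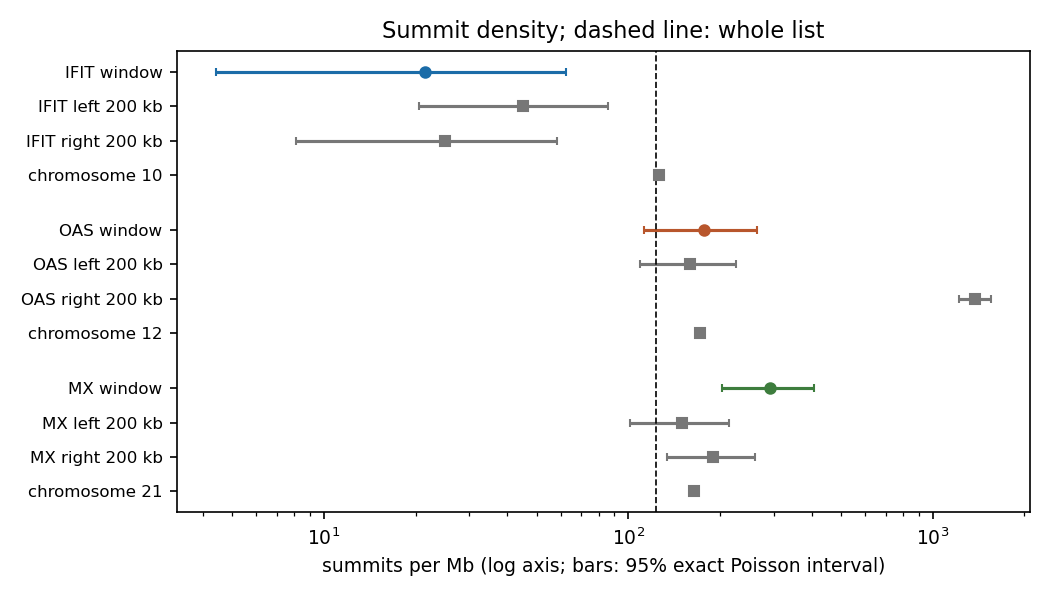
Summits per Mb (horizontal log axis) for each window, the 200 kb on its left and right and its whole chromosome; bars are 95% exact Poisson intervals and the dashed line is the whole list at 124 per Mb. The IFIT window lies below the line at 21.4, the OAS window at 177 and the MX window at 292, and the right side of the OAS window stands far above at 1380.0.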

How the data were processed

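ATAC-seq libraries from 75000 cells per sample (2 multiH1 knock-down, 2 random shRNA control) were made with Tn5, per the labels' protocols. Per the submitters' processing notes, Bowtie 1.1.2 aligned the reads, the build was hg19 and MACS2 called the peaks. The MACS2 version and options, the pooling of replicates and the handling of duplicates are not stated in these sources. The authors deposited 1 narrowPeak list. The deposited fold is a ratio at the summit, the deposited p-value and q-value columns hold −log10 values, and the deposited score was 10 times −log10 p within 1 unit in 100% of lines (it was not used further). The summit column, deposited as an offset, was added to the region's start, and positions are counted from 1.

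Pileups were recovered from the step between folds. All were whole within 0.02 reads, and the Poisson tail gave the listed −log10 p of all members within 6.05e-06. The total reads per sample are unknown, and the background of 2.01 reads is the measure of depth. The recovery and the interval of a ratio were tested on simulated data. The counts simulated for the interval were independent, unlike the summits of a window, so that test covers counting error only. Densities carry exact Poisson intervals, ratios the interval from the exact binomial share and shares Wilson intervals. Without molecular identifiers, PCR copies of 1 molecule can count as several reads, and whether such copies were removed is not known. Windows of equal length tile each chromosome from its first to its last listed region, centromeres included. No differential test was run.

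The members and lists were chosen with earlier results of these data known. Named were all 9 genes, all summits of a window with 12 or fewer, otherwise the 5 highest (with ties), the first and last, regions of 3 summits or of 1 kb, and the highest summit on each side. Summits that lie between groups were named after their values were seen. The tools were pandas 2.3.3, scipy 1.17.1, numpy 2.4.6 and Python 3.11.15.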

Additional observations from a re-analysis of the deposited data

How the results depend on the processing

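Of 64 alternatives for 14 results, 51 kept their direction and stayed within the main value's counting interval (counts within 1.5 times), 10 moved beyond it and 3 turned. The 14 for the ratios between windows and for the share of summits of 20 reads or more were chosen after seeing the data. Most settings below lower counts by construction. Taking only the left or right side leaves the window's count as it is and changes what it is set beside, for OAS 32 summits on the left or 276 on the right. Other causes were not tested. At 20 reads or more the OAS and MX windows had 2 summits each. At or above the list's median fold (5.32, 15 reads) they had 11 and 14. Because many summits tie at the median, that setting keeps more than 50% of the list. Of all listed summits 31.6% had 15 to 19 reads, 20.3% had 20 to 29 and 6.22% had 30 or more. At 20 reads or more the ratio of the window to its sides turned for IFIT (1.14, interval 0.109 to 6.98) and MX (0.513, 0.0562 to 2.27), each interval including 1 and the main value, and was 0.0691 for OAS, and the ratios to the IFIT window fell to 1.08 for OAS and 1.17 for MX. The OAS ratio to its sides was 0.372 with each region counted once, 0.353 with regions within 100 bp merged, 0.128 with the right side only and 1.11 with the left side only, where it turned. Among the 51, the share of summits of 20 reads or more moved from 9.84% to 15.4% without the MX window, where its interval (6.15 to 33.5%) includes the list's 26.5%. No paired analysis was possible because no sample has values of its own, and leaving out replicates was not possible for the same reason. Sites under 10 reads are not in the list, so a stretch without summits does not show closed chromatin.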

Other observations

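The matched promoters differed in base composition. The median GC content over the 6 genes was 46.8%, against 58.3% over all genes of the table, and the median number of CpG pairs per 300-base promoter was 10 against 14. Over the 24 other interferon-stimulated genes matched, these medians were 55.7% and 15.5, so the lower values are not shown for interferon-stimulated genes in general. Single promoters ranged from 1 CpG at OAS1 to 20 at OAS3, its neighbour in the OAS window, and to 30 at 1 of the 3 starts of MX1. IFIT5, with 16, had more than IFIT1 (4) and the 2 starts of IFIT3 (5 and 1). Whether the listed regions lie at the promoters with more CpG pairs was not analysed here. No value is available that ties any of these differences to the knock-down.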
